A study of Mus musculus with 16 samples.

Results

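Pianp, Ndrg2, Lingo3 and Slco1a5 are 4 of the 52636 genes in the count table of a mouse islet sequencing series. They were chosen by their low counts and their large rises in butyrate, with values of these same libraries in view, so the butyrate effects are described here without a test. The series held 16 RNA libraries from islets, the endocrine cell clusters of the pancreas, of male C57BL/6JRj mice aged 12 weeks (the study's methods name C57BL/6NRj), with 4 libraries from independent experiments in each of 4 conditions. Islets were cultured for 10 days, with a change of medium at day 5, and were either left unexposed (control) or exposed to 50 pg/ml recombinant mouse IL-1β, a pro-inflammatory cytokine, to 0.2 mM sodium butyrate, a fatty acid that bacteria of the colon produce, or to both. A library held the RNA of 500 islets, which the study pooled over mice, so the spread between replicates is that between experiments. No gene was altered in any condition, and all conditions shared the same culture medium with human serum. The libraries had 18635943 to 25955943 counts, and levels are given as CPM, the count of a gene relative to the total of its library after scaling by TMM factors. In bulk RNA, a change in the share of the cells that express a gene and a change in the RNA per cell cannot be told apart.

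Butyrate inhibits histone deacetylases, enzymes that take acetyl groups off histones, and loss of their activity is known to raise the transcription of some weakly expressed genes. The 4 genes belong to unrelated families. Pianp encodes a membrane protein that binds the paired receptor PILRα and is also known as a ligand of the GABA-B receptor in neurons. Ndrg2 encodes a cytosolic protein of the N-myc downstream regulated family, abundant in astrocytes, that is studied as a growth suppressor. Lingo3 encodes a leucine-rich repeat membrane protein related to LINGO1, a partner of the Nogo receptor that limits axon growth. Slco1a5 encodes an organic anion transporting polypeptide that takes up bile acids, thyroid hormones and drugs.

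All 4 are protein-coding genes in the GENCODE M21 annotation of GRCm38. Pianp (ENSMUSG00000030329) lies at chr6:124996694-125003096 on the plus strand. Ndrg2 (ENSMUSG00000004558) lies at chr14:51905271-51914158, Lingo3 (ENSMUSG00000051067) at chr10:80832801-80844039 and Slco1a5 (ENSMUSG00000063975) at chr6:142234227-142322981, all on the minus strand. Their promoters are shown because the genes moved together in butyrate, and because they differ in CpG content, the sequence feature that separates the main classes of mammalian promoter. The sequences are from RefSeq (GRCm38.p6), in windows of 250 bases before to 50 after a transcription start. Pianp and Ndrg2 had 3 such windows and Lingo3 and Slco1a5 had 2, and only the most upstream of each gene was used. For Pianp and Ndrg2 its start lies inside the annotated gene, so fewer bases are printed. The sequences are printed 5′ to 3′ on the strand of the gene, without any base that lies in an annotated exon, and capitals mark the CpG dinucleotides.

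Pianp, chr6:124996470-124996693: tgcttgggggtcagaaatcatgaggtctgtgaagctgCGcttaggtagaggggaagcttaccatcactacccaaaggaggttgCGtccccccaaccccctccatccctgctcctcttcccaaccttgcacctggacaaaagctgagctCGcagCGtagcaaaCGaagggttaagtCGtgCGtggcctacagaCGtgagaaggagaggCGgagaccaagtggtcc

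Ndrg2, chr14:51914159-51914254: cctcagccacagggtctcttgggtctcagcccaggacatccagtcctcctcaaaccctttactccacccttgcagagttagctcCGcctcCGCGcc

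Lingo3, chr10:80844040-80844289: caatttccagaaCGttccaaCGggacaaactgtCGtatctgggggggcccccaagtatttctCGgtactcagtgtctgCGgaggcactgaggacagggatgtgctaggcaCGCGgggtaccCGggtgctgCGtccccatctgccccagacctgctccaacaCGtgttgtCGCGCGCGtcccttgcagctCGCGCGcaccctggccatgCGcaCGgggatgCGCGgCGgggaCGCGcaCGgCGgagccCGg

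Slco1a5, chr6:142322982-142323231: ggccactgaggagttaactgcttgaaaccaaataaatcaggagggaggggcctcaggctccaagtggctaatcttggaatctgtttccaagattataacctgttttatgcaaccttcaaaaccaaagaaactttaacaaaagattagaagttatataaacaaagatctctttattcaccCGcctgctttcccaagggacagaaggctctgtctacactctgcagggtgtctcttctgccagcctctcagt

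The Lingo3 promoter was the richest in CpG of the 4. Its 300-base window had 35 CpG, an observed to expected ratio of 0.973 and a GC content of 69.7%, and 92.4% of the 27025 genes with a window had a lower ratio. Pianp had 22 CpG with a ratio of 0.75 and a GC content of 62.7%, and Ndrg2 had 11 with a ratio of 0.433 and 62.3%. Slco1a5 had 3 CpG with a ratio of 0.205 in a window of 44.3% GC, so CpG content ranged widely among the 4 genes. The median ratio was 0.389 over the 27025 genes and 0.728 over the 12545 tested genes that were matched.

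Short motifs were searched on both strands of the same windows, and a match is a description and not a binding site. The GC box, GGGCGG, was in 1 of the 4 windows, that of Ndrg2, and in 60% of the windows of tested genes. TATAAA was in those of Ndrg2 and Slco1a5 and in 7.76% of those of tested genes. In Ndrg2 neither the GC box nor TATAAA lies in the printed stretch. CACGTG was in that of Lingo3 (9.53% of tested genes), CCAAT was in none of the 4 (38.3%), and CACCC was in those of Ndrg2, Lingo3 and Slco1a5 (62.9%). No letters of one motif hold another of the 5 motifs, and no motif was in all 4 windows.

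Pianp had the largest fitted rise in butyrate of all 18587 genes tested. Its level was 0.560, 0.292, 0.526 and 0.471 CPM in the control libraries, from 7 to 12 counts, and 6.13, 6.04, 4.39 and 4.60 CPM in the butyrate libraries, from 84 to 136 counts. With IL-1β the levels were 0.931, 1.02, 0.570 and 0.866 CPM, and with IL-1β plus butyrate they were 9.18, 6.49, 6.48 and 6.69 CPM. Every library with butyrate thus lay above every library without it. The mean rose 11.4-fold from 0.462 ± 0.119 to 5.29 ± 0.922 CPM (SD, n = 4) without IL-1β, and 8.44-fold from 0.847 ± 0.196 to 7.21 ± 1.31 CPM in its presence. The fitted log2 changes were 3.52 (SE 0.215) and 3.08 (SE 0.186). The lowest library with butyrate alone had 7.84 times the CPM of the highest control, and the lowest with both agents had 6.34 times that of the highest with IL-1β alone.

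Ndrg2 rose least of the 4 genes without IL-1β and by a rise close to that of Pianp in its presence. The control libraries had 0.280, 0.459, 0.573 and 0.984 CPM, and the butyrate libraries 1.51, 1.78, 1.15 and 2.07 CPM. The IL-1β libraries had 0.103, 0.195, 0.259 and 0.289 CPM, which were 2 to 8 counts, and those with IL-1β plus butyrate had 1.79, 1.83, 1.53 and 1.83 CPM, which were 35 to 44 counts. The conditions with and without butyrate did not overlap, but only by a factor of 1.17 between butyrate replicate 3 and control replicate 4, against 5.31 with IL-1β. The log2 change was 1.49 (SE 0.278, 2.82-fold) without IL-1β and 2.97 (SE 0.332, 7.83-fold) with it. The mean levels with butyrate were 1.62 ± 0.390 CPM alone and 1.74 ± 0.142 CPM with IL-1β.

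Lingo3 stood at a higher control level with a wider spread. The control libraries had 0.793, 1.38, 2.58 and 2.01 CPM and the IL-1β libraries 0.620, 0.633, 1.04 and 1.01 CPM. With butyrate the levels were 5.83, 7.06, 5.64 and 7.05 CPM, and with both agents 4.55, 4.63, 5.61 and 5.49 CPM. Again no library with butyrate overlapped one without it, and the lowest library with butyrate alone had 2.19 times the highest control. The log2 change was 1.93 (SE 0.202, 3.80-fold) without IL-1β and 2.59 (SE 0.234, 6.01-fold) with it.

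Slco1a5 had the highest counts of the 4 genes and the narrowest controls. Its level was 5.55, 5.34, 5.21 and 5.52 CPM in the control libraries and 24.1, 29.8, 24.04 and 24.9 CPM in the butyrate libraries, where it had 460 to 671 counts. The IL-1β libraries had 3.57, 2.78, 2.85 and 2.74 CPM and those with both agents 10.9, 15.1, 12.9 and 13.2 CPM. None of the 4 conditions overlapped another. The log2 change in butyrate was 2.25 (SE 0.0962, 4.76-fold) without IL-1β and 2.13 (SE 0.113, 4.38-fold) with it.

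**Figure D1:**
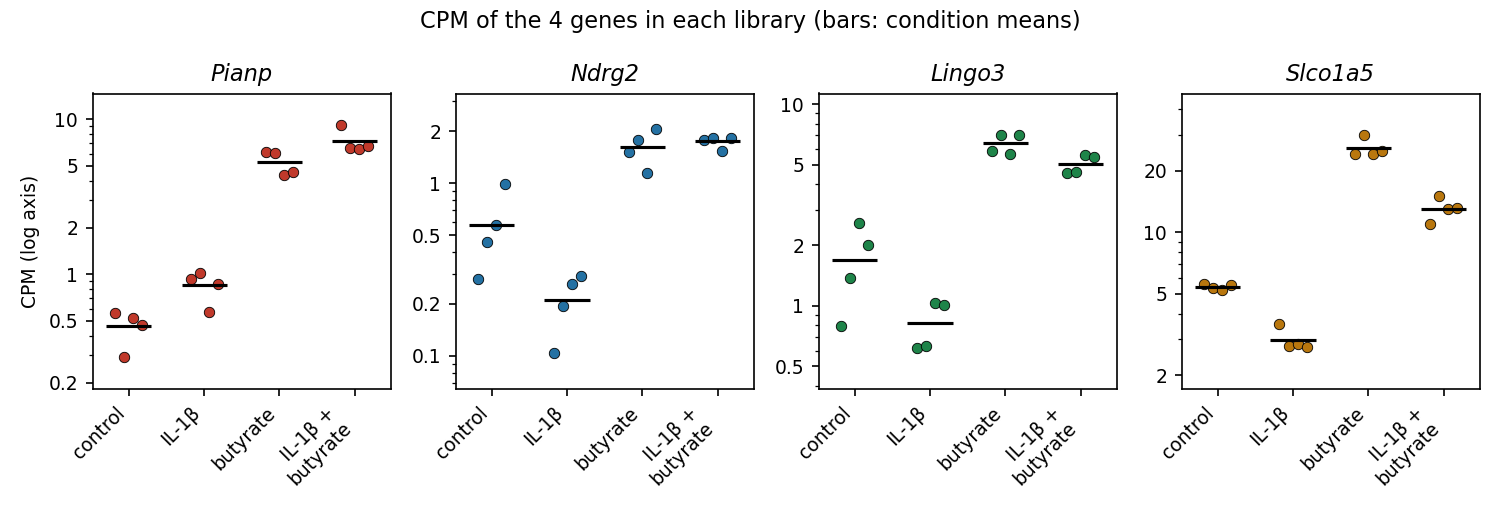
CPM on a log axis in each of the 16 libraries, with points for the 4 libraries of each condition in replicate order and bars for the condition means. All butyrate libraries of each gene lie above all libraries without butyrate, with the smallest gap for Ndrg2 (1.17 times), and Slco1a5 has 4 separate levels.

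In both butyrate comparisons the libraries of all 4 genes did not overlap and were higher with butyrate, where 13.3% of tested genes had such a pattern against control and 12.3% in the presence of IL-1β. Since the genes were picked for this rise, nothing is read from that count. The edgeR test called 8.53% of all tested genes raised by butyrate and 11.4% lowered, and in the presence of IL-1β it called 8.41% raised and 11.1% lowered.

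Ranked by log2 change in butyrate against control, Pianp was at 1, Slco1a5 at 25, Lingo3 at 52 and Ndrg2 at 140 of 18587. In the presence of IL-1β the ranks were 7 for Pianp, 10 for Ndrg2, 18 for Lingo3 and 42 for Slco1a5. By the smaller of both rises, Pianp was at 1, Slco1a5 at 18, Lingo3 at 28 and Ndrg2 at 73, so the genes were among the larger rises but only Pianp was at the head. The choice had no numeric limit, and many genes with like values were not among the 4. Of 7937 tested genes with a mean control level under 5 CPM, 22 (0.277%) had a log2 change of at least 2 in both comparisons, and Pianp was the 1 of the 4 genes among them. Slco1a5 passed the change but had a control level of 5.41 CPM, while Lingo3 and Ndrg2 fell short of the change against control. A log2 change of at least 2 was found in 0.226% of tested genes in butyrate against control and in 0.291% in the presence of IL-1β.

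**Figure D2:**
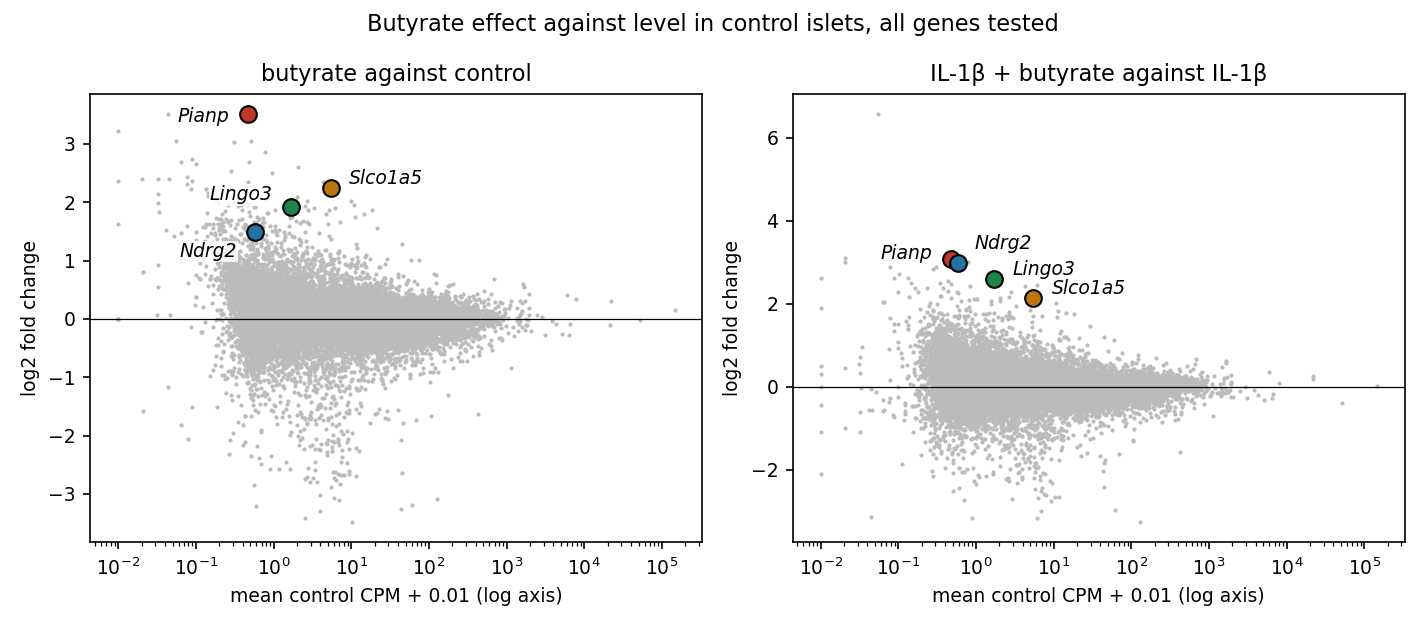
Log2 fold change in butyrate (left against control, right in the presence of IL-1β) against the mean control CPM plus 0.01 on a log axis, with 1 grey point for each of the 18587 tested genes and coloured points for the 4 genes. Pianp is at the top on the left with 3.52, and Ndrg2 moves from 1.49 on the left to 2.97 on the right.

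Compared per exon length (RPKM), all 4 genes were weakly expressed in control islets. The mean control levels were 0.162 RPKM for Pianp, 0.169 for Ndrg2, 0.475 for Lingo3 and 1.45 for Slco1a5. In butyrate they were 1.86, 0.478, 1.80 and 6.91 RPKM in the same order, and with both agents 2.53, 0.513, 1.42 and 3.50 RPKM. Ndrg2 with butyrate, the lowest of these, was close to the mean level that Lingo3 had in control. The share of tested genes with a lower control CPM was 9.38% for Pianp, 14.3% for Ndrg2, 31.3% for Lingo3 and 43.6% for Slco1a5.

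IL-1β alone separated the 4 genes. It lowered Slco1a5, and the fall of Lingo3 passed only near the threshold. The Pianp libraries were all higher with IL-1β without passing the test. These comparisons share both their control and their IL-1β libraries with the comparisons that chose the genes. Those of IL-1β with butyrate likewise share both the butyrate libraries and the libraries with both agents. The study had also picked out Ndrg2 and Lingo3 from genes that it called lowered by IL-1β in these same libraries. Their tests in IL-1β here are therefore not independent evidence.

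Slco1a5 fell from 5.41 ± 0.163 to 2.98 ± 0.391 CPM in IL-1β, a log2 change of -0.87 (SE 0.127, edgeR adjusted p = 5.86e-06), with no overlap of the libraries, a pattern that 10.7% of tested genes had. The test called 6.59% of all tested genes lowered and 11.2% raised by IL-1β. Lingo3 fell from 1.69 ± 0.774 to 0.825 ± 0.229 CPM, a log2 change of -1.005 (SE 0.276, adjusted p = 0.00795). This fall did not pass in 12 of 23 alternatives, with an adjusted p up to 0.0454 without control replicate 3 (log2 change -0.74). Ndrg2 had 0.574 ± 0.299 CPM in control and 0.212 ± 0.0821 CPM in IL-1β, a log2 change of -1.39 (SE 0.399, adjusted p = 0.00996). It is not counted as a call here, since Ndrg2 passed the filter on low counts through the libraries with butyrate and was left out when the control and IL-1β libraries were fitted by themselves. Its adjusted p was above the threshold of 0.01 in 15 of 22 alternatives, up to 0.0887 without control replicate 4 (log2 change -0.99). For both genes the lowest control library, replicate 1, lay inside the range of the IL-1β libraries. Replicate 1 was also the lowest of the IL-1β libraries for both. At each replicate number the IL-1β library was below the control library, though the labels do not say that the numbers pair the libraries. Pianp changed by 0.89 on the log2 scale (SE 0.293, adjusted p = 0.0246), and passed in 1 of 23 alternatives, that with a replicate block (adjusted p = 0.00923). Its 4 libraries with IL-1β were all above the 4 controls, a pattern that 14.1% of tested genes had, with 0.570 CPM in the lowest against 0.560 CPM in the highest control.

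In islets that also had butyrate, IL-1β lowered Slco1a5 by a log2 change of -0.98 (SE 0.0856, adjusted p = 8.21e-10), from 25.7 ± 2.76 to 13.02 ± 1.71 CPM, with no overlap, a pattern that 10.0% of tested genes had. Here the test called 4.86% of all tested genes lowered and 9.92% raised. The other 3 genes did not pass, although Pianp passed in 3 of 23 alternatives, that with a replicate block among them. Lingo3 changed by -0.34 (SE 0.173, adjusted p = 0.182), from 6.396 ± 0.768 to 5.07 ± 0.558 CPM, with all libraries with IL-1β below all without. Ndrg2 changed by 0.09 (SE 0.235, adjusted p = 0.853) with overlap, and Pianp by 0.45 (SE 0.141, adjusted p = 0.021) with all libraries with IL-1β above all without, as 14.2% of tested genes had.

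The order of the conditions therefore differed between the genes. Pianp was highest with both agents, then butyrate, IL-1β and control. Neither the first pair nor the last pair of neighbours in that order passed the test, but both passed with a replicate block. Slco1a5 and Lingo3 ran from butyrate through both agents and control to IL-1β, and the first pair of neighbours passed the test for Slco1a5 and not for Lingo3. Ndrg2 with both agents and with butyrate could not be told apart, and control and IL-1β came below. Against control, islets with both agents had 15.6 times the level of Pianp (log2 3.96, SE 0.206), 2.99 times that of Ndrg2 (log2 1.58, SE 0.274), 2.99 times that of Lingo3 (log2 1.58, SE 0.205) and 2.41 times that of Slco1a5 (log2 1.27, SE 0.101).

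**Figure D3:**
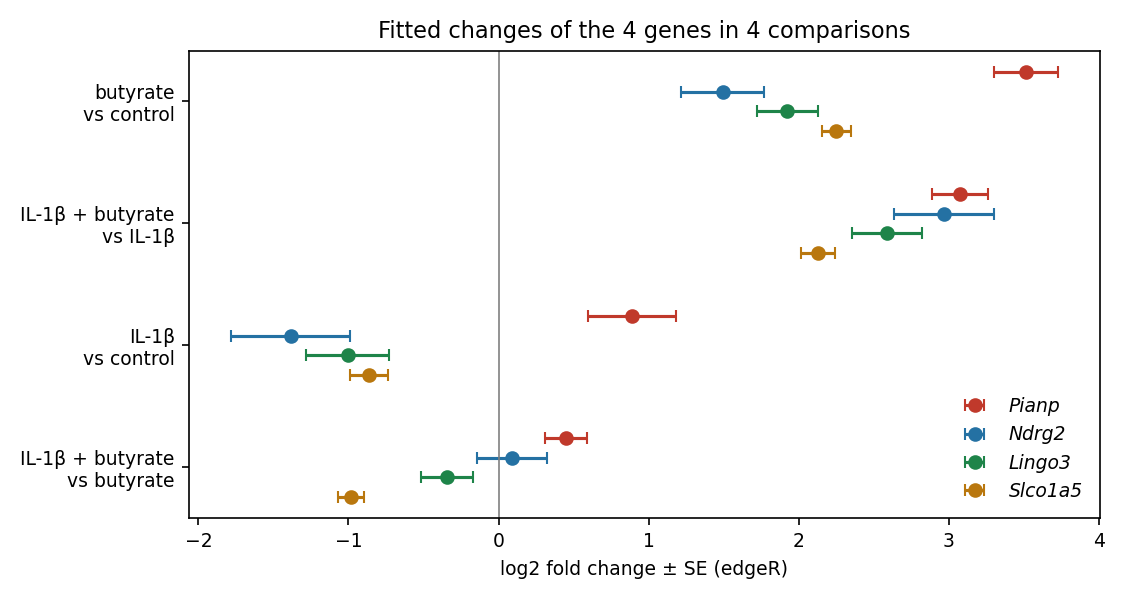
Fitted log2 fold changes with their standard errors (edgeR, 4 libraries per condition) of the 4 genes in 4 comparisons. The changes in butyrate are all positive, from 1.49 to 3.52, and with IL-1β alone Ndrg2, Lingo3 and Slco1a5 are below 0 and Pianp above.

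The rise in butyrate was on the log2 scale 1.48 (SE 0.464) larger in the presence of IL-1β for Ndrg2 and 0.66 (SE 0.327) larger for Lingo3. For Pianp the difference was -0.44 (SE 0.324) and for Slco1a5 -0.12 (SE 0.156). These differences are made of the comparisons that chose the genes and were not tested.

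The close relatives of Ndrg2, Lingo3 and Slco1a5 are named by their families. In the NDRG family 3 other members were tested, and butyrate raised Ndrg4, a brain and heart member, by 0.31 (SE 0.0553, adjusted p = 0.000102) and 0.28 (SE 0.0533, adjusted p = 0.00022) on the log2 scale without and with IL-1β. It lowered Ndrg1, a gene known for its induction by stress and hypoxia, by log2 changes of -0.25 (adjusted p = 0.00312) and -0.33 (adjusted p = 0.000207), and Ndrg3 passed in neither. The median of the 3 was 0.04 against 0.01 over all genes for butyrate alone. Ndrg4 also rose with IL-1β, by 0.36 (adjusted p = 1.15e-05), and Ndrg1 fell by 0.24 (adjusted p = 0.00409). The call of Ndrg1 in IL-1β was lost in 6 of 23 alternatives (adjusted p up to 0.0261, without IL-1β replicate 3). In butyrate alone it was lost in 3 (adjusted p up to 0.0189, without control replicate 1).

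Of the LINGO family, Lingo1 and Lingo4 were tested and Lingo2 had at most 10 counts in a library. Lingo1 had 10.3, 12.8, 13.04 and 11.3 CPM in control, 6.20, 6.72, 6.58 and 5.56 CPM with IL-1β, 20.3, 21.8, 17.0 and 18.4 CPM with butyrate, and 14.3, 12.2, 15.02 and 13.7 CPM with both. The order of the means was that of Lingo3, and all 4 comparisons passed the test, although the control libraries and those with both agents overlapped. Butyrate raised Lingo1 by 0.71 (SE 0.0872, adjusted p = 5.4e-07) and, with IL-1β, by 1.15 (SE 0.0979, adjusted p = 1.37e-09). IL-1β lowered it by log2 changes of -0.93 (adjusted p = 3.49e-08) and, with butyrate, -0.49 (adjusted p = 7.08e-05). Lingo4 passed in no comparison, with changes of -0.30 and -0.57 in butyrate.

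Of the other 14 Slco genes 8 were tested, and Slco1a6, which lies 25706 bases from Slco1a5 on the same strand, was the 1 that butyrate raised. It stood at 67.1 to 79.7 CPM in control and 144 to 157 CPM in butyrate, a log2 change of 1.01 (SE 0.0718, adjusted p = 7.67e-10), and rose by 0.82 (SE 0.0724, adjusted p = 2.08e-08) with IL-1β. Like Slco1a5 it was lower with both agents than with butyrate alone (log2 -0.33, adjusted p = 0.00107), while its change in IL-1β alone was -0.15 (adjusted p = 0.158). Butyrate lowered Slco5a1, by -0.70 (adjusted p = 0.00207) and -0.68 (adjusted p = 0.000976), and, with IL-1β present, Slco3a1 by -0.29 (adjusted p = 8.22e-05). IL-1β raised Slco2b1, a transporter that is also found in macrophages, by 1.97 (adjusted p = 4.71e-05) alone and 2.15 (adjusted p = 4.32e-05) with butyrate, and raised Slco3a1 and Slco5a1 and lowered Slco2a1 when given alone. The call of Slco5a1 in IL-1β was lost in 6 of 23 alternatives (adjusted p up to 0.0413, without control replicate 3). In butyrate alone it was lost in 2 (adjusted p up to 0.014, without control replicate 4). That of Slco3a1 in IL-1β was lost in 1, without control replicate 4 (adjusted p = 0.0121). That of Slco2a1 in IL-1β was lost in 6, with the highest adjusted p (0.0516) under library size as the only scaling. The same scaling was the 1 alternative in which the call of Slco1a6 in IL-1β with butyrate was lost (adjusted p = 0.0329). The median of the 8 was -0.12 in butyrate and 0.05 in butyrate with IL-1β, against 0.01 and 0.01 over all genes. Of the 3766 stretches of 50 bases in the transcripts of Slco1a5, 134 (3.56%) also occur in other genes, 79 of them in Slco1a6. No stretch of Pianp, Ndrg2 or Lingo3 does.

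Genes of known partners of these proteins were read in the same way. Of the genes of the paired PILR receptors, Pilrb1 and Pilrb2 had at most 3 and 4 counts in a library. Pilra, which encodes the PILRα that binds PIANP, had a mean of 0.276 to 0.623 CPM. It passed in no comparison (0 of 1 with edgeR and with DESeq2, and 1 comparison with an unadjusted p under 0.05). The relative of PIANP, Ajap1, had at most 10 counts. Of 7 genes of the GABA-B receptor, its auxiliary KCTD subunits and its ligand APP, 6 were tested, and 1 rose and 3 fell in butyrate (8.53% and 11.4% of all tested genes), with 2 to 5 lowered over the alternatives. Gabbr1 rose by 0.23 (adjusted p = 0.00784), while Kctd12 fell by 0.78 (adjusted p = 0.000144), Kctd12b by 0.67 (adjusted p = 0.000998) and App by 0.24 (adjusted p = 0.000577). The call of Gabbr1 was lost in 9 of 23 alternatives, with the highest adjusted p (0.0574) under library size as the only scaling. That of Kctd12b was lost in 1, when only the compared libraries were fitted (adjusted p = 0.0253). With IL-1β present, Kctd12 and Kctd12b fell again, by 0.88 and 1.11. Gabbr2, the second receptor subunit, was raised by IL-1β, by 0.85 alone (adjusted p = 0.000321) and 0.96 with butyrate (adjusted p = 0.000155), and Kctd12 by 1.04 (adjusted p = 3.33e-06) and 0.94 (adjusted p = 2.42e-05). Of the Nogo receptor complex, in which LINGO1 acts, 4 of 8 genes were tested. Rtn4, which encodes Nogo itself, rose in butyrate by 0.27 (adjusted p = 0.000161) and had a change of 0.17 in the presence of IL-1β that did not pass (adjusted p = 0.012). The receptor gene Rtn4r and the ligand genes Omg and Mag had at most 12 counts in a library.

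The genomic neighbours were measured to describe how far around each gene a rise extended. Over all tested genes, 8.53% were called raised in butyrate and 8.41% in the presence of IL-1β. None of the 6 nearest protein-coding genes of Pianp was called in any of the 4 comparisons by edgeR or DESeq2. With an unadjusted p under 0.05 there were 0 in butyrate against control and 1 in the presence of IL-1β. Their log2 changes in butyrate ran from -0.09 to 0.18 without IL-1β and from -0.13 to 0.25 with it, and the nearest of them, Zfp384 at 6049 bases, changed by -0.09 and -0.07. Around Ndrg2 3 of 6 neighbours were tested, and the others had at most 2 counts. Arhgef40, 70561 bases away, was the 1 that rose, from 5.05 to 6.402 CPM in control to 7.16 to 7.99 CPM in butyrate. Its log2 changes were 0.45 (SE 0.11, adjusted p = 0.00256) and, with IL-1β, 0.77 (SE 0.116, adjusted p = 1e-05), and IL-1β alone lowered it by 0.45 on the log2 scale (adjusted p = 0.00564). The butyrate call against control was lost in 2 of 23 alternatives (adjusted p up to 0.0149, without control replicate 2). The IL-1β call was lost in 7 (adjusted p up to 0.0311, without control replicate 3).

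Around Lingo3 2 of 6 neighbours rose in butyrate alone and 1 with IL-1β present, where 8.53% and 8.41% of all tested genes did. In control the 2 genes had few counts, 5 to 10 for Tmprss9 and 6 to 12 for Jsrp1. Tmprss9, a serine protease gene 27809 bases away, had 0.233 to 0.478 CPM in control and 0.804 to 0.989 CPM in butyrate, and 0.390 to 0.518 CPM in IL-1β and 1.502 to 2.32 CPM with both agents. Its log2 changes in butyrate were 1.55 (SE 0.294, adjusted p = 0.000187) and 1.99 (SE 0.247, adjusted p = 6.28e-07), and in islets with butyrate IL-1β raised it by 1.01 (SE 0.22, adjusted p = 0.00107), where Lingo3 changed by -0.34. Jsrp1, a gene of the muscle sarcoplasmic reticulum on the other side, rose by 1.37 (SE 0.34, adjusted p = 0.00291) in butyrate alone and changed by 0.28 (adjusted p = 0.62) in the presence of IL-1β. The call of Jsrp1 was lost in 3 of 23 alternatives (adjusted p up to 0.0159, without butyrate replicate 4). That of Tmprss9 in IL-1β with butyrate was lost in 1, without IL-1β plus butyrate replicate 3 (adjusted p = 0.0103). The 3 genes that lie nearest to Lingo3, Oaz1, Lsm7 and Sppl2b, passed in no comparison, with changes in butyrate from -0.09 to 0.05. They were far more abundant than Tmprss9 and Jsrp1, at control means of 130.7, 7.83 and 23.7 CPM.

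Around Slco1a5 the gene for the islet hormone amylin, Iapp, lies within the locus on the opposite strand, with no exon in common. Its mean level was 21970 CPM in control, against 5.41 CPM for Slco1a5. It rose by 0.32 (SE 0.0705, adjusted p = 0.00106) in butyrate and by 0.30 (adjusted p = 0.00185) in IL-1β, where Slco1a5 fell. The IL-1β change of Iapp did not pass in 2 of 23 alternatives (adjusted p up to 0.0122, without control replicate 3). The kit that made the libraries does not mark strand, and the part that reads of Iapp could have in the counts of Slco1a5 was not tested. Of the 6 tested neighbours, Iapp included, 2 were raised by butyrate, where 8.53% of all tested genes were, and the other was Slco1a6. With IL-1β present Slco1a6 alone was called, and Iapp had a log2 change of 0.19 (adjusted p = 0.047). Gm6614, on the strand of Slco1a5 and with 4 to 7 counts in control, passed in neither. Its means were 0.256 CPM in control, 0.564 in butyrate, 0.1565 in IL-1β and 0.332 with both.

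**Figure D4:**
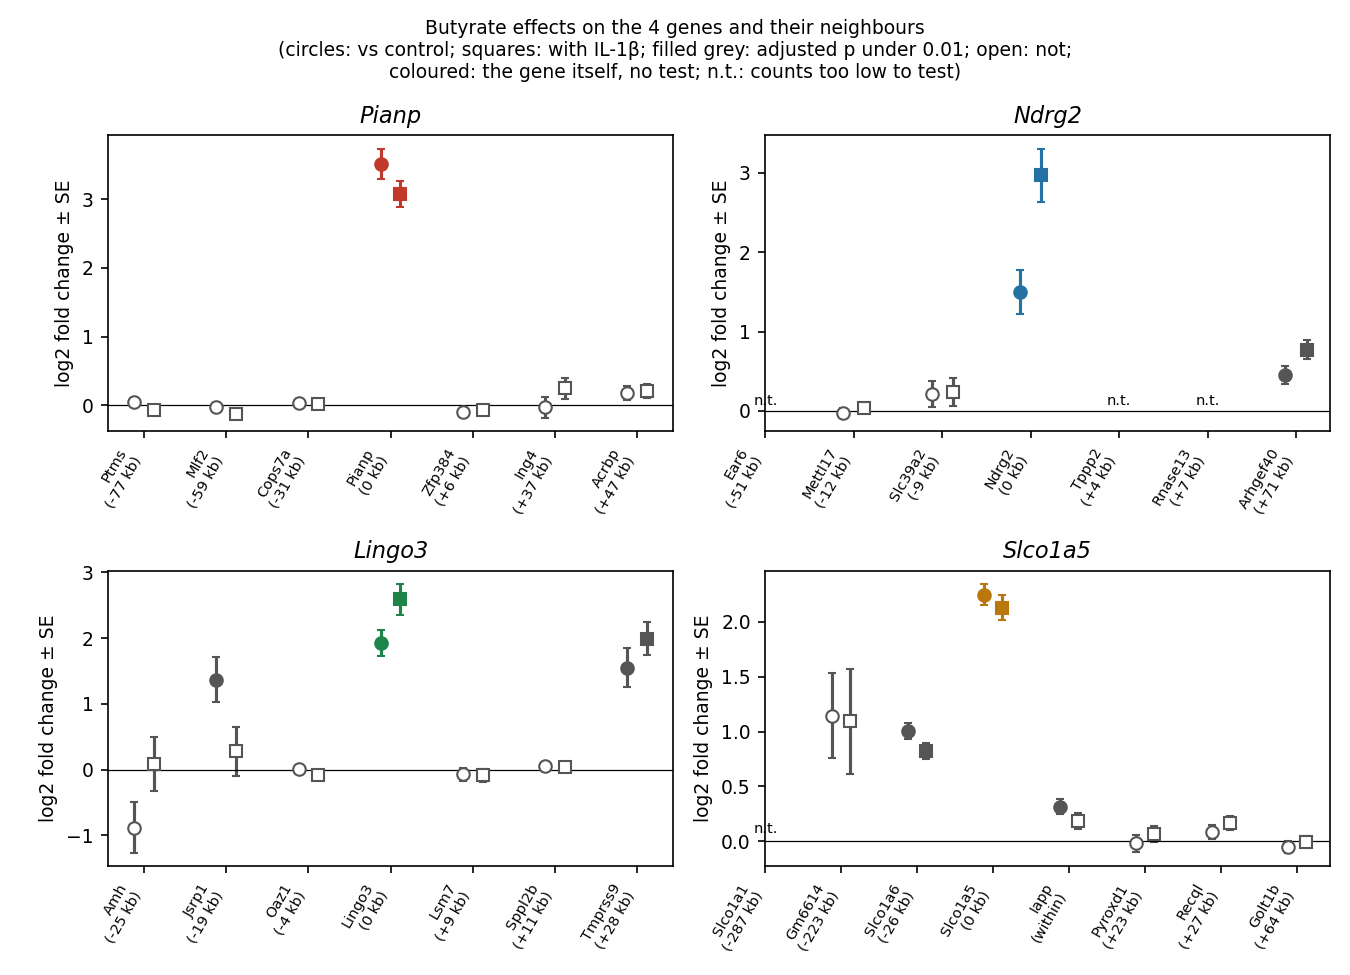
Log2 fold changes with their standard errors in butyrate, against control (circles) and with IL-1β (squares), for each of the 4 genes (coloured) and the genes around it, ordered by position with the distance between gene bodies in kb. Grey filled symbols are the neighbours that passed an adjusted p of 0.01, which are Arhgef40, Jsrp1, Tmprss9, Slco1a6 and Iapp, and the neighbours of Pianp stay near 0.

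Across the 16 libraries, the levels of Ndrg2 and Lingo3 were most alike (Pearson r of log2 CPM 0.965), followed by Lingo3 and Slco1a5 (0.928) and Ndrg2 and Slco1a5 (0.878). Pianp had r from 0.802 to 0.827 with the other 3. These values rest on 4 conditions chosen to differ, and all points share the library scaling. Among all other tested genes, those most like Pianp were Agap2, a GTPase activating protein gene (r = 0.99), Dnm1, which encodes the neuronal dynamin (r = 0.985), and Sult4a1, a brain sulfotransferase gene (r = 0.982). As these genes were picked for their likeness in the same libraries, their changes are given as a description without a test. Dnm1 had a control mean of 10.8 CPM and log2 changes in butyrate of 1.95 (SE 0.0875) and, with IL-1β, 2.02 (SE 0.0839). For Agap2 they were 1.80 (SE 0.0661) and 1.77 (SE 0.0635), and its changes in IL-1β were 0.37 alone and 0.35 with butyrate.

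Most like Ndrg2 were Speg (r = 0.972), which encodes a muscle kinase, the adenosine receptor gene Adora1 (r = 0.968) and the polyamine oxidase gene Paox (r = 0.966). Most like Lingo3 were Adora1 (r = 0.98), the autophagy gene Atg9b (r = 0.979) and the netrin receptor gene Unc5b (r = 0.976). Atg9b had log2 changes in butyrate of 1.32 (SE 0.226) alone and 2.10 (SE 0.25) with IL-1β. The genes most like Slco1a5 had smaller changes than it did. Slc7a5, an amino acid transporter gene (r = 0.973), had a control mean of 276 CPM and 1.34 times that level in butyrate, and Smim1 (r = 0.975) and Mkln1 (r = 0.975) had 1.40 and 1.22 times their control levels. The choice depended on the measure, and by Spearman rho 1 of the 3 genes named for each of Pianp (Agap2), Ndrg2 (Paox), Lingo3 (Adora1) and Slco1a5 (Mkln1) was again among the first 3.

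Histone deacetylases, which act in corepressor complexes, are a known target of butyrate, and the study also names G-protein coupled receptors as a possible route. Of 29 listed genes of deacetylases and corepressor complexes, all tested, 3 rose and 4 fell in butyrate, where 8.53% and 11.4% of all tested genes did. With IL-1β present 5 rose and 3 fell, where 8.41% and 11.1% did. Over the alternatives these counts ran from 2 to 8 raised and 2 to 5 lowered in butyrate, and from 3 to 8 and 3 to 5 with IL-1β present. The medians were 0.07 and 0.04, against 0.01 for all genes in both. Rcor2, a corepressor of the REST complex, rose by 1.08 (SE 0.0789) and 1.04 (SE 0.0807), Chd4 rose by 0.32 and 0.32, and Mbd3 fell by 0.51 and 0.45. Of 8 genes known to respond to deacetylase inhibitors in other cells, 2 rose and 2 fell in both comparisons. The linker histone gene H1f0 rose by 0.39 and 0.44 and the metallothionein gene Mt2 by 1.36 and 1.36, while the cell cycle inhibitor gene Cdkn1a, often raised by such inhibitors, fell by 0.74 and 0.65, and Klf4 by 0.91 and 0.92. The rise of Mt2 with IL-1β present did not pass in 5 of 23 alternatives (adjusted p up to 0.0182, without IL-1β replicate 4).

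Markers of the cell types in the islet moved with some of these comparisons, and their part in the changes of the 4 genes was not tested. The 8 beta cell markers summed to 213000 to 236000 CPM in control and 222000 to 261000 CPM in butyrate. The sums were 137000 to 178000 CPM in IL-1β and 137000 to 169000 CPM with both agents. IL-1β alone lowered 7 of the 8, where 6.59% of all tested genes were lowered, and raised Iapp. With IL-1β present, butyrate lowered 2 of the 8, Ins1 and Mafa, and raised 0, where 11.1% of all tested genes were lowered. The 4 macrophage markers summed to 6.21 to 10.7 CPM in control, 5.57 to 7.68 in butyrate, 28.5 to 51.3 in IL-1β and 15.1 to 32 with both. All 4 rose with IL-1β alone, where 11.2% of all tested genes did, and with butyrate present, where 9.92% did. Delta cell markers, 3 in all, summed to 1690 to 1990 CPM in control and 2390 to 2770 in butyrate. Of them 1 passed the test as raised, Sst (means of 1650 and 2418 CPM), where 8.53% of all tested genes did. The 2 markers of pancreatic polypeptide cells summed to 2230 to 3050 CPM in control and 3190 to 3920 in butyrate, and 0 passed in edgeR and 1 in DESeq2. Butyrate lowered 2 of 5 alpha cell markers and raised 0, where 11.4% of all tested genes were lowered. The 4 duct markers summed to 12.1 to 18 CPM in control and 22.8 to 48.6 in butyrate, and to 99.6 to 211 in IL-1β and 196 to 464 with both. Most of this sum was Spp1, which encodes the secreted protein osteopontin and is also expressed in macrophages, with means of 11.9 CPM in control, 27.7 in butyrate, 158 in IL-1β and 348 with both. The condition means of the duct markers Krt19 and Sox9 stayed between 1.43 and 2.39 CPM. In butyrate against control 0 of the 3 tested duct markers passed in edgeR, 1 passed in DESeq2 and 1 had an unadjusted p under 0.05.

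The cell types in which Ndrg2, Pianp and Lingo3 are best known, glia and neurons, showed smaller shifts. The 5 Schwann cell and glia markers summed to 11.9 to 14.6 CPM in control, 12.7 to 15.5 in butyrate, 8.81 to 11.4 in IL-1β and 11.4 to 13.9 with both, and the 4 neuron markers, which islet endocrine cells share in part, to 264 to 293, 287 to 322, 267 to 301 and 304 to 322 CPM in the same order. In butyrate against control, of the 4 glia markers tested 0 passed in edgeR or DESeq2 and 1 had an unadjusted p under 0.05. Of the 4 neuron markers 0 passed in edgeR, 1 passed in DESeq2 and 1 had an unadjusted p under 0.05. With IL-1β present 1 marker of each list rose in butyrate, where 8.41% of all tested genes did. No glia or neuron marker was at 0 in all libraries of a condition, and of 5 acinar markers 1 was.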

How the data were processed

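Per the labels and the study's methods, single-end reads from a kit that does not mark strand were mapped to mouse GRCm38 with STAR 2.5.3a, and the authors deposited whole-number counts of reads per gene, not normalized, with 0 columns of other samples. The counter's settings and annotation release were not given in the sources used here. Groups follow the sample titles.

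Low-count genes were left out with filterByExpr of edgeR 4.0.16 in R 4.3.3 (by condition, 18587 of 52636 kept). Counts were scaled by TMM, and edgeR fitted 1 robust quasi-likelihood model of the 4 conditions to the 16 libraries without a block. A gene counted as called when its adjusted p (Benjamini-Hochberg, over all genes tested) was under 0.01. CPM use the TMM factors, and RPKM divide them by the exon length in GENCODE M21. DESeq2 1.42.0 and other scalings, filters and left-out libraries were alternatives. Scripts were tested on simulated data. The lowest chi-square per gene between replicates was 1.72, for control replicates 3 and 4, and the next lowest was 3.33. No pair of replicates thus differed by counting error alone. Whether 2 libraries came from the same islets cannot be read from these values. The reads carried no molecular identifiers.

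The 4 genes, the lists and the alternatives were chosen with earlier results of these data known. Named were the 4 genes, their families, partners and the 3 nearest coding genes on each side where called or barely detected, lists by counts with examples, and for each gene the 3 others with the highest Pearson r of log2 CPM (prior count 2). Neighbours of Pianp and Lingo3 that were not called are named by position. Motifs and CpG were counted in the most upstream RefSeq promoter window of each gene, of 300 bases.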

Additional observations from a re-analysis of the deposited data

Results flagged for a closer look

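In 11 of the 164 sets of 4 libraries of one condition examined, 1 library stood apart from the other 3, by a gap to the nearest of them that took over 0.829 of the range of the set. Chance alone gives this in about 1 of 20 sets. Of the 4 genes, Pianp had 9.18 CPM in IL-1β plus butyrate replicate 1 against 6.48 to 6.69 CPM in the others (0.922 of the range), Ndrg2 had 1.53 CPM in replicate 3 of the same condition against 1.79 to 1.83 CPM (0.855), and Slco1a5 had 3.57 CPM in IL-1β replicate 1 against 2.74 to 2.85 CPM (0.869) and 29.8 CPM in butyrate replicate 2 against 24.04 to 24.9 CPM (0.849).

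Among the other genes, IL-1β plus butyrate replicate 2 was lowest for Arhgef40, with 5.35 CPM against 7.46 to 7.80 CPM (0.864), for Dnm1, with 48.9 CPM against 55.9 to 57.0 CPM (0.865), and for Slc7a5, with 313.2 CPM against 329.9 to 332.6 CPM (0.861). Control replicate 3 was highest for Tmprss9, with 0.478 CPM against 0.233 to 0.257 CPM (0.904), control replicate 1 was highest for Kctd12b, with 53.1 CPM against 35.8 to 38.0 CPM (0.87), butyrate replicate 3 was lowest for Chd4, with 389.3 CPM against 430.4 to 432.4 CPM (0.954), and IL-1β replicate 3 was lowest for Slco3a1, with 41.98 CPM against 44.01 to 44.28 CPM (0.883).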

How the results depend on the processing

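The butyrate rises of all 4 genes kept their size under 23 alternatives, within the spread between replicates. For butyrate against control the log2 changes ran from 3.34 to 3.62 for Pianp, 1.27 to 1.89 for Ndrg2, 1.70 to 2.18 for Lingo3 and 2.17 to 2.30 for Slco1a5. With IL-1β they ran from 2.92 to 3.17, 2.75 to 3.17, 2.46 to 2.71 and 2.04 to 2.20. Both falls of Slco1a5 in IL-1β passed under all 23, with adjusted p up to 8.77e-05 alone and 1.97e-07 with butyrate. The IL-1β change of Ndrg2 did not pass under 15 of 22 alternatives (adjusted p 0.00239 to 0.0887), among them RLE size factors (-1.38) and library size alone (-1.32). It could not be fitted with only the compared libraries, where its counts were too low. The fall of Lingo3 did not pass under 12 of 23 (adjusted p 8.9e-05 to 0.0454), among them library size alone (-0.939) and only the compared libraries (-1). For Pianp, the IL-1β change with butyrate passed with library size alone (0.548) and with no filter on low counts (0.473). The causes were not tested. Leaving out 1 library at a time, the IL-1β change ran from 0.711 to 1.03 for Pianp, -1.6 to -0.987 for Ndrg2 and -1.23 to -0.744 for Lingo3, and with butyrate from 0.305 to 0.525 for Pianp. For Ndrg2 with butyrate, a change that did not pass, it ran from -0.0372 without butyrate replicate 3, a change of sign, to 0.23.

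Replicate numbers were not treated as pairs. Libraries with the same number had deviations from the condition means that correlated with r from 0.053 to 0.4, over 0.1 in 17 of 24 pairs. Libraries with different numbers had r from -0.29 to 0.17, and 13 of 16 libraries correlated best with one of their own number. The numbers may thus mark shared experiments, which the labels do not state, and the fit without a block does not use this. With the replicate block the Pianp change in IL-1β was 0.897 (adjusted p = 0.00923) and with butyrate 0.443, both of which then passed.

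The number of called genes in a comparison, both directions together, stayed within 1.5 times under every alternative, but the scaling moved its split. The share of calls that were raised was 63% for IL-1β, 67.1% for IL-1β with butyrate, 42.9% for butyrate and 43.1% for butyrate with IL-1β. Under upper-quartile scaling these were 51.5%, 53.2%, 58.5% and 57.7%, and under library size alone 79.8%, 87.5%, 35.1% and 44.8%. For IL-1β with butyrate, library size alone gave 3153 raised and 451 lowered genes, against 1844 and 903. Of 96 counts over the lists of relatives, partners, deacetylase genes and neighbours, 63 stayed within 1.5 times under every alternative. Of 88 values of other named genes, 19 lost their call in at least 1 of 23 alternatives and 0 changed sign. Precision is limited by library counts as low as 2 for Ndrg2, 7 for Pianp and 12 for Lingo3 without butyrate.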
